A study of Mus musculus with 6 samples.

Results

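The genes described here encode the nuclear subunits of the oxidative phosphorylation system and the assembly factors named with them, in Lbeta T2 cells treated with activin A. A gene was taken when its single symbol in the platform annotation began with Nduf, Uqcr, Atp5, Cox4i or Cox5 to Cox8, or was Sdha, Sdhb, Sdhc, Sdhd, Cyc1 or Cycs. This gave 92 genes with 184 probe sets. After a filter on dim probe sets, 89 of the 92 stayed among 11408 genes tested, each represented by its brightest probe set. The 3 genes under the filter, Cox6b2, Cox7c and Cox8b, are given by their signals only, and Cox7b was not analysed here.

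Oxidative phosphorylation takes place in the inner mitochondrial membrane. Complex I and complex II pass electrons from NADH and succinate to ubiquinone, complex III passes them on to cytochrome c, and complex IV, cytochrome c oxidase, gives them to oxygen. The proton gradient built on the way drives ATP synthase. Most subunits are encoded in the nucleus and are made together with a small number encoded in mitochondrial DNA, and some complex IV subunits have separate forms for muscle, testis or lung.

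Lbeta T2 is an immortalised mouse pituitary line of the gonadotrope lineage, and activin A is a ligand of the TGF-beta family that acts on gonadotropes. Cells were kept for 16 h in serum-free, phenol-free medium. They then received activin A at 30 ng/ml or vehicle, and RNA was taken after 1, 2 or 6 h. The groups were activin at 1 h and vehicle at 1 h, activin at 2 h and vehicle at 2 h, and activin at 6 h and vehicle at 6 h, with 1 array each. Every group was 1 array of 1 cell line, and the labels do not say how many flasks stood behind it, so a single time has no replicate check. The tests over the 3 times have only the 3 array pairs as repeats. Their error is drawn partly from how far those pairs differ and partly from the spread over all genes tested. In these bulk samples, fewer cells and less RNA per cell cannot be told apart. Of 10 gonadotrope markers, 8 passed the filter, among them Cga, the common hormone alpha subunit, with signals of 12802.4 to 16715.3 on activin arrays and 11888.7 to 13900.2 on vehicle arrays. Lhb, the beta subunit of luteinizing hormone, had 668.3 to 1419.7 over the 6 arrays. Fshb, the beta subunit of follicle-stimulating hormone, read 6.4 to 78.4 and was under the filter. Of 8 markers of other pituitary cells, 2 passed it. Tshb, a thyrotrope hormone subunit, read 399.5 to 520.8 over the 6 arrays. Pomc, the corticotrope hormone precursor, had 224.9, 252.3 and 315.0 in activin and 229.6, 233.3 and 159.3 in vehicle at 1, 2 and 6 h, lowest on the vehicle 6 h array. Sox2, a stem cell factor, stayed at 2.5 to 6.2.

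The 6 arrays had similar scale but not the same spread. The standard deviation of log2 signal over the genes tested was 1.497 on the activin 2 h array and 1.435 to 1.454 on the others. The signal of the 5′ control probe set for 18S ribosomal RNA was 12201.8 on the activin 1 h array and 190.3 to 1171.1 on the others. The part of these differences in the results below was not tested.

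Subunit genes were among the brightest on the arrays and differed little between activin and vehicle. The median signal of the 89 members was 5890.4, against 811.4 over all genes tested, and 69 of the 89 (77.5%) lay in the brightest 10% of genes. The ratio of the highest to the lowest of a gene's 6 signals had a median of 1.17 for members and 1.34 for all genes. It was under 1.2 for 56 members (62.9%), against 21.2% of all genes. Ndufb3, an accessory subunit of complex I, had the narrowest range, 1.03-fold over the 6 arrays. The widest ranges were 1.49-fold for Cox7a1 and 1.48-fold for Ndufaf2. The averaged activin over vehicle ratio lay within 1.1-fold for 82 members (92.1%) and for 60.7% of all genes.

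A narrow spread was also seen in other bright genes. The 439 other genes with a mean signal of at least 5000, a comparison chosen after the values were seen, had a median range of 1.18-fold, and 90.9% of them had averaged ratios within 1.1-fold. Their log2 ratios had standard deviations of 0.123, 0.107 and 0.136 at 1, 2 and 6 h, close to 0.107, 0.110 and 0.131 for the members. Over all genes tested the same values were 0.297, 0.298 and 0.332.

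No member passed limma's test of the activin effect averaged over the 3 times, and 0% of all genes passed it after Benjamini-Hochberg adjustment at 0.05. At an unadjusted p under 0.05, 0 of 89 members were higher and 0 lower, where 4.15% of all genes were higher and 6.32% lower. Among the 439 other bright genes, 6 were higher and 2 lower at that threshold. The members' count depended on limma's prior, as given further below. The lowest adjusted p among members was 0.509, for Cox7a1. The median standard error of a member's averaged log2 ratio was 0.086. Limma shares variance over genes, so members with nearly equal ratios kept errors of this size. Atp5j, with ratios of 0.068, 0.074 and 0.063 at 1, 2 and 6 h, had 0.081. Differences of a few percent were therefore not detectable with 6 arrays, and neither were somewhat larger ones. Cox7a1, the highest member at an averaged 1.21-fold, had an unadjusted limma p of 0.0749. Much larger differences did not pass the adjusted threshold either. Over all genes tested the averaged log2 ratios ran from -2.172 to 1.791, and the lowest adjusted p was 0.305. The count of 0 members therefore does not show that activin had no effect on them.

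The members' median log2 ratio was 0.043 at 1 h, 0.087 at 2 h and 0.017 at 6 h, and the median of the averaged ratios was 0.048, a fold of 1.03. Over all genes tested these medians were -0.041, -0.026, -0.025 and -0.035. Members were higher on the activin array in 58 of 89 cases at 1 h, 70 at 2 h and 51 at 6 h, that is 65.2%, 78.7% and 57.3%, against 42.3%, 44.3% and 45.4% of all genes. The other bright genes had medians of 0.042, 0.087 and -0.002 and were higher in 63.6%, 84.7% and 47.6% of cases. The 56 members of that brightness had medians of 0.063, 0.096 and 0.013 and were higher in 78.6%, 92.9% and 55.4%. The sign of the members' medians at 1 h and 2 h depended on the scaling of the arrays. After quantile normalization they were -0.019, -0.001 and 0.011 at 1, 2 and 6 h, and the other bright genes then had -0.017, -0.003 and -0.011. After centring each array on its median they were 0.111, 0.129 and 0.078.

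**Figure D1:**
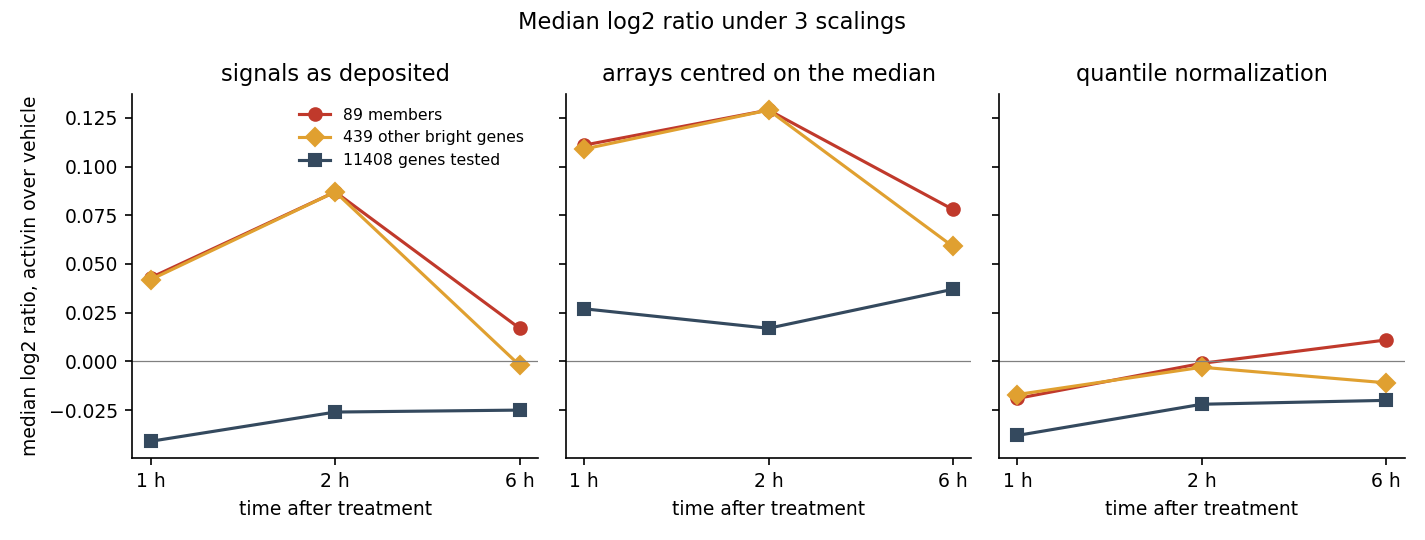
Median log2 ratio of activin over vehicle at 1, 2 and 6 h for the 89 members, the 439 other genes with a mean signal of at least 5000 and all 11408 genes tested, under 3 scalings of the same 6 arrays. Members lie at 0.043, 0.087 and 0.017 with the signals as deposited, and the members' and the other bright genes' points nearly coincide at 1 h and 2 h in each panel.

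**Figure D2:**
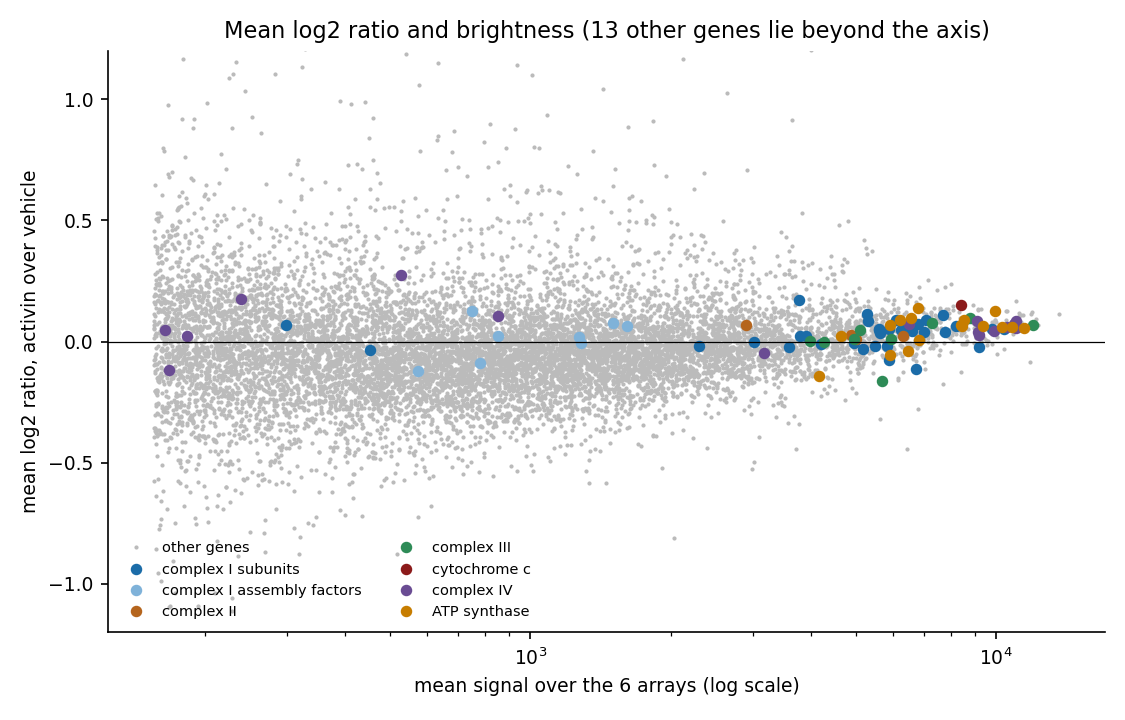
Log2 ratio of activin over vehicle averaged over the 3 times (vertical) against the geometric mean signal over the 6 arrays (horizontal, log scale) for the members, coloured by complex, and all other genes tested in grey; 13 other genes lie beyond the vertical axis. Most members sit at the bright end, where grey points are also close to 0, and Cox7a1 at 0.28 is the highest member.

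Single times gave few members past a fold of 1.2. At 1 h, 0 members were at least 1.2-fold higher in activin, where 10.4% of all genes were, and 1 was at least 1.2-fold lower, where 17.7% were. At 2 h there was 1 higher member and a background of 9.99%, and 2 lower members and a background of 15.3%. At 6 h, 4 members were higher, with 14% of all genes, and 1 was lower, with 16.3%. By its brightest probe set, no member reached 1.5-fold in either direction at 1, 2 or 6 h, where 5.22%, 5.47% and 6.85% of all genes did. Some dimmer probe sets of members did, such as 1 of Ndufab1 at 1 h (log2 ratio 1.18) and 1 of Ndufs8 at 6 h (-0.72). No member differed by 1.2-fold or more in 1 direction at every time, against 2.45% of all genes. These shares of members lie below the background of all genes, and brightness moves with them as given above.

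Ratios of any size were counted by direction. Of 89 members, 28 (31.5%) were higher in activin at all 3 times, against 12.1% of all genes, and 2, Ndufc1 and Uqcrh, were lower at all 3 times, against 22.1%. In 9 members all 3 activin signals lay above all 3 vehicle signals, against 5.33% of all genes. They were Atp5b, Atp5j2, Atp5k, Atp5pb, Cycs, Ndufa9, Ndufab1, Ndufb5 and Ndufv2. The opposite order was found in 0 members and in 9.7% of all genes. Among the 439 other bright genes, 130 were higher at all 3 times and 49 had all activin signals above all vehicle signals. The count of 28 became 9 after quantile normalization and 56 after median centring, and the count of 9 became 3 and 28. After quantile normalization, 14 members were lower at all 3 times and 4 had all activin signals below all vehicle signals, so lower members then outnumbered higher ones; after median centring these counts were 1 and 0.

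**Figure D3:**
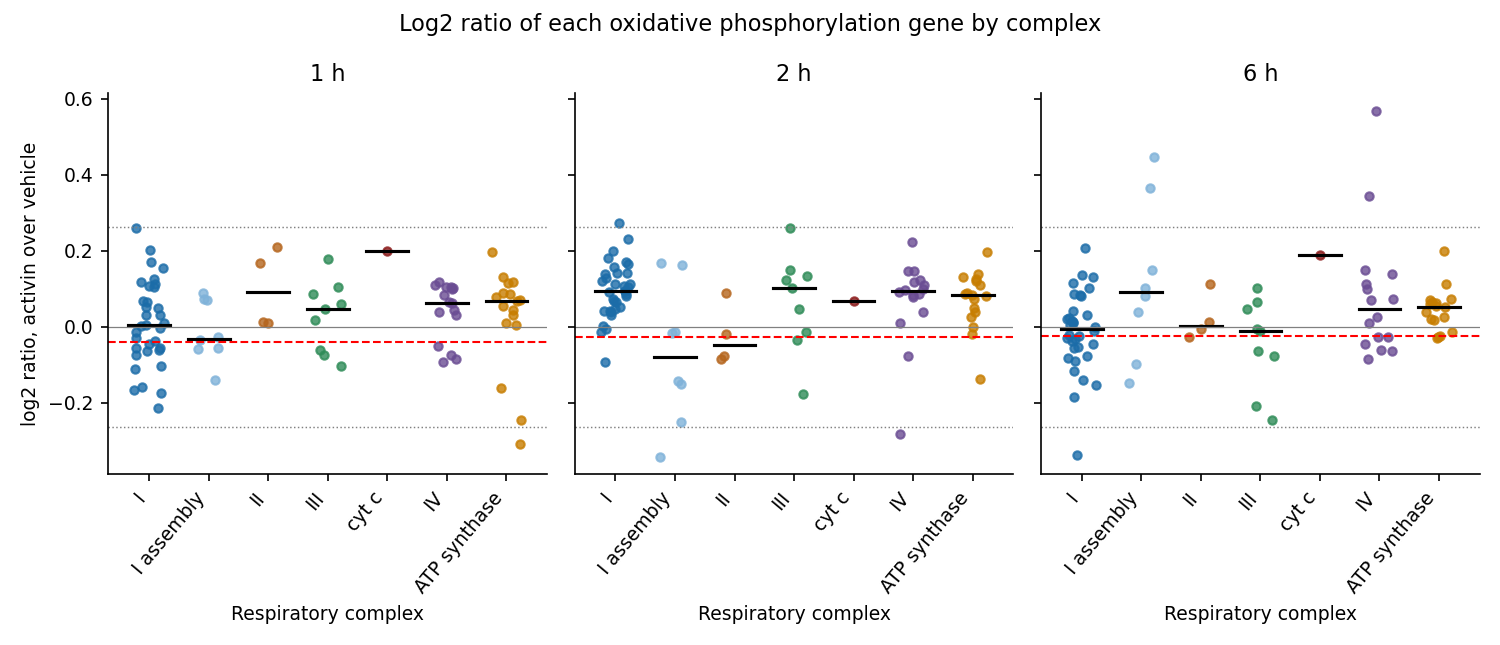
Log2 ratio of activin over vehicle (vertical) of each of the 89 members at 1, 2 and 6 h by complex (horizontal). Each point is 1 gene from 1 pair of arrays, black bars are medians, the red dashed line is the median of all genes tested and the dotted lines mark 1.2-fold. Nearly all points lie inside the dotted lines, and Cox7a1 at 6 h stands highest at 0.57.

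Complex I subunits, 34 genes, had a median averaged log2 ratio of 0.043, with medians of 0.004, 0.095 and -0.006 at 1, 2 and 6 h. Of them, 22 averaged above 0, as did 4593 of all 11408 genes and 318 of the 439 other bright genes. Among the catalytic core, Ndufv1, which binds NADH and flavin, had signals of 5141.1, 6518.2 and 5613.8 on activin arrays and 5773.8, 6135.1 and 6239.1 on vehicle arrays at 1, 2 and 6 h. It was lower in activin at 1 h and 6 h and higher at 2 h, and the groups overlapped. Further probe sets of Ndufv1 gave log2 ratios of 0.088, 0.091 and 0.003, and of 0.040, 0.079 and -0.064, so the lower value at 1 h rests on 1 probe set. Ndufs1, the largest iron-sulfur subunit, had 2947.4, 3154.9 and 2960.9 in activin and 2955.5, 3070.2 and 3037.2 in vehicle. Its log2 ratios were -0.004, 0.039 and -0.037, and the groups overlapped. Ndufs7, an iron-sulfur subunit near the ubiquinone site, had ratios of -0.11, 0.07 and -0.02.

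The highest and the lowest averaged ratio of complex I belonged to accessory subunits. Ndufb6, a subunit of the membrane arm, had signals of 4420.8, 3589.6 and 4017.0 in activin and 3693.3, 3190.8 and 3782.8 in vehicle at 1, 2 and 6 h. It was higher in activin at each time, but the groups overlapped, and its averaged log2 ratio was 0.17 ± 0.09 (SE, 3 pairs; limma adjusted p = 0.546). A further probe set of Ndufb6 gave 0.06, 0.09 and -0.06. Ndufab1, the mitochondrial acyl carrier protein, had 5499.2, 5565.7 and 5406.3 in activin and 5063.2, 5262.0 and 4919.2 in vehicle. All activin values stood above all vehicle values, with an averaged log2 ratio of 0.11 and an adjusted p of 0.653 in limma. A dimmer probe set of Ndufab1, also past the filter, gave 1.18, 0.05 and -0.06. Ndufa12 averaged 0.11. The lowest averages were those of Ndufb8, a membrane-arm subunit, at -0.11, Ndufv1 at -0.08 and Ndufb1 at -0.04.

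Several complex I ratios turned between times. Ndufa10 had signals of 4687.4, 5604.6 and 4563.3 in activin and 5432.6, 4635.6 and 4832.4 in vehicle, and was the 1 member at least 1.2-fold higher at 2 h. It was lower in activin at 1 h and 6 h, so its averaged log2 ratio was -0.01. A further probe set of Ndufa10, with a mean signal of 184.7, gave -0.345, -0.179 and 1.107. Ndufb8 had 5791.2, 7474.7 and 6231.0 in activin and 6463.8, 6708.2 and 7870.7 in vehicle, and was the member 1.26-fold lower at 6 h. The vehicle 6 h value was the highest of the 6 and the activin 2 h value the second. Ndufa13 had log2 ratios of 0.07, 0.23 and -0.18, and Ndufs4, an accessory subunit of the peripheral arm, had -0.17, 0.14 and -0.02.

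Assembly factors of complex I, which join its modules and are not in the finished enzyme, were dimmer. The standard deviation of their log2 ratios was 0.080, 0.183 and 0.205 at 1, 2 and 6 h, against 0.112, 0.073 and 0.104 for the complex I subunits. The 8 Ndufaf genes had median log2 ratios of -0.031, -0.079 and 0.092 at 1, 2 and 6 h and an averaged median of 0.021. Ndufaf2 had signals of 832.8, 747.7 and 769.2 in activin and 792.3, 824.8 and 564.1 in vehicle. At 6 h it was 1.36-fold higher in activin, and the vehicle 6 h array was the lowest of the 6. Ndufaf6 had 784.7, 824.5 and 983.2 in activin and 864.3, 914.7 and 763.6 in vehicle. It was lower in activin at 1 h and 2 h and 1.29-fold higher at 6 h. Ndufaf7, an arginine methyltransferase, had 619.5, 480.8 and 555.7 in activin and 590.1, 609.3 and 595.0 in vehicle. The activin 2 h array was lowest, 1.27-fold below vehicle, and the groups overlapped.

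Complex II, succinate dehydrogenase, which also works in the citric acid cycle, had an averaged median of 0.027 over its 4 genes. Sdha, the flavoprotein, had signals of 5190.6, 4953.1 and 4647.2 in activin and 4620.8, 5229.2 and 4668.3 in vehicle. Sdhb, the iron-sulfur subunit, had log2 ratios of 0.01, 0.09 and -0.03. The membrane anchors Sdhc and Sdhd had averaged ratios of 0.07 and 0.01. Sdhc was highest on the activin 1 h array, with 3358.4 against 2901.5 on the vehicle 1 h array, and close to vehicle later.

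Complex III, 9 genes, had an averaged median of 0.012, with 0.047, 0.103 and -0.012 at 1, 2 and 6 h. Uqcrh, the hinge protein at the cytochrome c1 head, had the lowest averaged ratio of all members. Its signals were 5088.0, 5707.5 and 5338.5 in activin and 5467.7, 6456.8 and 6167.2 in vehicle. It was lower in activin at each time, with log2 ratios of -0.10, -0.18 and -0.21, but the groups overlapped, and the average was -0.16 ± 0.08 (SE, 3 pairs; limma adjusted p = 0.549). A further probe set of Uqcrh gave 0.04, -0.06 and 0.08, so the direction rests on 1 of its probe sets. Uqcrc1, a core protein, had log2 ratios of 0.02, 0.26 and -0.25. Uqcrfs1, the Rieske iron-sulfur protein, had -0.07, 0.05 and 0.06. Cyc1, cytochrome c1, had 9115.6, 9346.9 and 8757.4 in activin and 8049.5, 8585.5 and 8832.5 in vehicle, higher in activin at 1 h and 2 h and not at 6 h.

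Cycs, cytochrome c itself, had signals of 8982.4, 8847.5 and 8746.8 in activin and 7819.5, 8442.9 and 7672.9 in vehicle at 1, 2 and 6 h. Every activin value stood above every vehicle value. The averaged log2 ratio was 0.15 ± 0.09 (SE, 3 pairs), a fold of 1.11, with a limma adjusted p of 0.578. Of its further probe sets past the filter, 1 gave log2 ratios of 0.09, 0.02 and 0.07, and the other gave -0.04, -0.11 and 0.44.

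Complex IV includes the muscle forms Cox7a1 and Cox6a2. Cox7a1 had the highest averaged ratio of all members, and Cox6a2, at 0.175, was level with Ndufb6 of complex I, at 0.172. Over its 16 measured genes the averaged median was 0.058, with 0.063, 0.095 and 0.048 at 1, 2 and 6 h. Cox7a1, the heart and skeletal muscle form of subunit 7a, had signals of 497.5, 568.9 and 687.9 in activin and 461.1, 514.1 and 464.0 in vehicle. It was higher in activin at each time, by 1.08-, 1.11- and 1.48-fold at 1, 2 and 6 h, and the groups overlapped because vehicle at 2 h exceeded activin at 1 h. Its averaged log2 ratio was 0.28 ± 0.12 (SE, 3 pairs; limma adjusted p = 0.509). Cox6a2, the muscle form of subunit 6a, lay not far above the filter at 155.2, with 254.6, 265.4 and 241.4 in activin and 236.8, 251.3 and 190.3 in vehicle. It was higher in activin at each time and 1.27-fold higher at 6 h, where the vehicle array was the lowest of the 6, with an averaged log2 ratio of 0.18 and a limma adjusted p of 0.574.

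Muscle markers were mostly dim beside these values. Of 8 markers, 6 were under the filter, and the summed signal of all 8 was 718.6 to 786.5 on activin arrays and 546.6 to 805.6 on vehicle arrays. Ckm, muscle creatine kinase, passed the filter with 330.0, 395.3 and 427.8 in activin and 353.6, 386.7 and 201.5 in vehicle. The vehicle 6 h array was thus the lowest for Ckm and Pomc as for Cox6a2 and Ndufaf2; its part in these 6 h ratios was not tested. Acta1, skeletal muscle actin, stayed at 3.2 to 21.0.

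The forms of complex IV subunits used in most tissues had small ratios. Cox7a2, the general form of subunit 7a, had 10823.5, 12041.0 and 11252.9 in activin and 10087.4, 11359.6 and 10692.0 in vehicle, with log2 ratios of 0.10, 0.08 and 0.07. Cox6a1, the general form of subunit 6a, had 0.10, 0.11 and -0.05. Cox4i1 averaged 0.07, Cox6b1 0.06 and Cox8a 0.04, and Ndufa4, now counted with complex IV, averaged 0.07. Cox4i2, the lung form, had signals of 163.6 to 205.8 over the 6 arrays, just above the filter at 155.2, and averaged 0.02. Cox8c, a testis form, averaged 0.11, but a further probe set past the filter gave -0.027, -0.025 and -0.237 at 1, 2 and 6 h. Cox7a2l, a factor of respiratory supercomplexes, averaged -0.05. Its further probe sets gave -0.267, -0.198 and -0.085, and -0.139, -0.233 and -0.045. Cox7b2 had 177.8, 136.0 and 172.0 in activin and 189.5, 165.4 and 169.1 in vehicle, and was 1.22-fold lower at 2 h. Ndufa4l2 stayed between 156.2 and 177.8. Under the filter, Cox6b2 read 44.9 to 100.8, Cox7c 59.6 to 105.0 and Cox8b 62.4 to 145.3, values too dim for ratios.

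**Figure D4:**
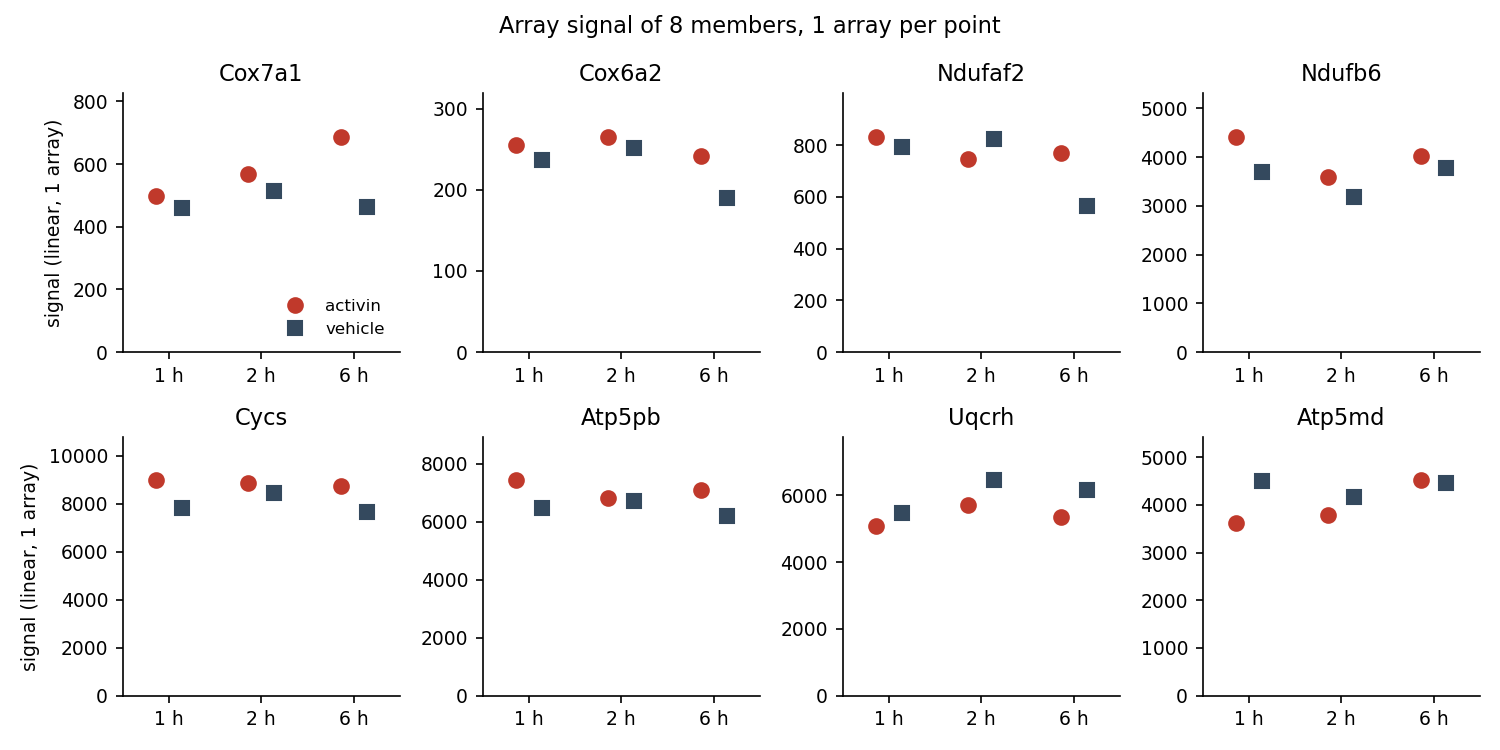
Signal (vertical, linear, from 0) of 8 members at 1, 2 and 6 h (horizontal), 1 array per point, activin as red circles left of vehicle as dark squares. Cox7a1 separates most at 6 h (687.9 in activin, 464.0 in vehicle), Cycs and Atp5pb have all activin points above all vehicle points, Uqcrh lies lower in activin at each time, and Atp5md does so at 1 h and 2 h.

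ATP synthase, 17 genes, had an averaged median of 0.063, with 0.068, 0.083 and 0.053 at 1, 2 and 6 h. Of its genes, 14 averaged above 0, as did 4593 of all 11408 genes and 318 of the 439 other bright genes. The catalytic core differed little. Atp5b, the beta subunit, had signals of 8758.0, 8967.6 and 8632.3 in activin and 8075.2, 8466.3 and 8250.4 in vehicle, and Atp5a1, the alpha subunit, averaged 0.06. Every activin value of Atp5b stood above every vehicle value, with an averaged log2 ratio of 0.09. The genes of the c ring, Atp5g1, Atp5g2 and Atp5g3, averaged 0.02, 0.01 and 0.06.

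The stalk and membrane subunits of ATP synthase held its extremes. Atp5pb, subunit b of the peripheral stalk, had 7435.3, 6821.8 and 7109.0 in activin and 6490.1, 6705.2 and 6194.7 in vehicle. All activin values stood above all vehicle values, with an averaged log2 ratio of 0.14 ± 0.09 (SE, 3 pairs; limma adjusted p = 0.613). A further probe set of Atp5pb gave -0.14, 0.11 and 0.09. Atp5j2, subunit f, averaged 0.13 and Atp5k, subunit e, 0.10. Atp5md, a small protein of the membrane sector, had 3622.7, 3791.3 and 4517.0 in activin and 4489.4, 4168.0 and 4464.6 in vehicle. It was 1.24-fold lower at 1 h, the 1 member past that fold then, and equal within 1.01-fold at 6 h. Atp5e, the epsilon subunit, had log2 ratios of -0.24, 0.00 and 0.07, and Atp5mpl averaged -0.04.

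Promoters of 4 members are shown because they carry the contrasts above: the muscle and general forms of subunit 7a, and Cycs and Atp5pb. The last 2 come from the 9 members whose activin signals all exceeded vehicle on the brightest probe set. They are RefSeq sequences of GRCm38.p6, 250 bases before to 50 after the start. Capitals mark GCATGCGC, the core of the NRF1 motif, CCGGAAG, an ETS motif, or AAGATGGC, a YY1 motif, on either strand. An ETS match can overlap a YY1 match by the letters AAG.
Cox7a1 (chr7:30183921-30184220, + strand): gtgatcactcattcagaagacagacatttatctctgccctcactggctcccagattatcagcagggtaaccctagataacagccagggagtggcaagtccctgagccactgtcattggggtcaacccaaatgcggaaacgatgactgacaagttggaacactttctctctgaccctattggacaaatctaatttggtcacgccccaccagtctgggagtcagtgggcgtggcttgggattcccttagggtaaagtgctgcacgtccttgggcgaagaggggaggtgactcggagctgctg
Cox7a2 (chr9:79759804-79760103, - strand): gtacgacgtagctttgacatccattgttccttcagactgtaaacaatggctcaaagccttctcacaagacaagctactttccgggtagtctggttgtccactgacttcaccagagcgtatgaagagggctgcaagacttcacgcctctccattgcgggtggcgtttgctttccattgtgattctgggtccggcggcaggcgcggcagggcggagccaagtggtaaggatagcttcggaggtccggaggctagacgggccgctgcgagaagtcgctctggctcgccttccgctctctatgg
Cycs (chr6:50566520-50566819, - strand): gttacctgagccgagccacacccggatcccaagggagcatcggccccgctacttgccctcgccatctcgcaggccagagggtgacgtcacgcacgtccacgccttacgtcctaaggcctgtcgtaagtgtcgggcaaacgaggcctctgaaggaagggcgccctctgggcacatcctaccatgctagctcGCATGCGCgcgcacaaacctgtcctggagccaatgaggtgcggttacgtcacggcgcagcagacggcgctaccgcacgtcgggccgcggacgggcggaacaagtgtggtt
Atp5pb (chr3:105959214-105959513, - strand): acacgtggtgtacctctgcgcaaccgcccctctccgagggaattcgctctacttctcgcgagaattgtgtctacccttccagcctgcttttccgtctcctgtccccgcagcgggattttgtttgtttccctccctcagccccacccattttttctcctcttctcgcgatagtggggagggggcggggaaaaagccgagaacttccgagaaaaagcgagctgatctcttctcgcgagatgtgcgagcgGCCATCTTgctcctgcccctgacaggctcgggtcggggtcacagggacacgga

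The Cox7a1 window held 7 CpG dinucleotides and the Cox7a2 window 20, with no searched motif in either. The Cycs window held 32 and an NRF1 core, and the Atp5pb window 23 and a YY1 motif on the opposite strand. Of the other members whose activin signals all exceeded vehicle, Atp5b, Ndufab1, Ndufb5 and Ndufv2 had no searched motif. Atp5j2, Atp5k and Ndufa9 had at least 1. A promoter was found for 75 of the 92 members. The NRF1 core lay in 12 of them (16%), against 6.24% of the 9266 tested genes with a promoter and 3.05% of all 27025. A longer NRF1 form of 10 letters, searched first, lay in 6 (8%), against 2.36% and 1.07%. The YY1 motif lay in 10 (13.3%), against 5.39% and 3.19%, and the ETS motif in 19 (25.3%), against 20.4% and 9.93%. These matches are a description of letters, not of binding.

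The arrays were also compared by time after treatment. In limma's comparison of 2 h with 1 h over both treatments, 0 of 89 members and 0% of all genes passed the adjusted threshold. At an unadjusted p under 0.05, 3 members passed, against 6.78% of all genes. These were the assembly factors Ndufaf4, with a log2 difference of -0.36, Ndufaf5 with -0.32 and Ndufaf1 with -0.27, each with an adjusted p of 0.707. Ndufaf4 had 1734.5, 1302.8 and 1620.0 in activin and 1630.2, 1314.8 and 1459.7 in vehicle at 1, 2 and 6 h, lowest at 2 h under both treatments. For 6 h over 1 h, 0 members and 0% of all genes passed the adjusted threshold, and 0 members passed the unadjusted one, against 9.72% of all genes.

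Within each treatment, the members' median log2 difference of 2 h over 1 h was 0.104 in activin, with 70 of 89 higher, and 0.056 in vehicle, with 68 higher. These counts are 78.7% and 76.4%, against 54.3% and 51.0% of all genes. At least 1.2-fold differences in either direction occurred in 12 members on the activin arrays, against 33.9% of all genes, and in 3 on the vehicle arrays, against 19%. For 6 h over 1 h the medians were -0.016 in activin and 0.018 in vehicle, with 7 members past 1.2-fold in activin, against 36.3% of all genes, and 3 in vehicle, against 23.4%. The other bright genes had a median of 0.122 in activin and 0.077 in vehicle for 2 h over 1 h, and 83.4% and 85.4% of them were higher.

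Related genes of mitochondrial metabolism likewise had no gene past the adjusted threshold. One of the 13 subunits encoded in mitochondrial DNA was measured, ND5 of complex I, with an averaged log2 ratio of 0.02. Of 36 assembly factors other than Ndufaf, 34 were measured, with an averaged median of -0.017. Sdhaf1, an assembly factor of complex II, had 1054.3, 1218.7 and 1287.0 in activin and 750.4, 1039.8 and 768.0 in vehicle. All activin values stood above all vehicle values, with an averaged log2 ratio of 0.49 ± 0.12 (SE, 3 pairs; limma adjusted p = 0.416). Timmdc1, which assembles complex I, averaged 0.51 and Cox18, which inserts a complex IV subunit, -0.31. Both also had unadjusted p values under 0.05 and adjusted p of 0.416 and 0.438 in limma.

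Among 20 measured regulators of mitochondrial biogenesis the averaged median was -0.010. Ppargc1b, a coactivator of the PGC-1 family, had 1823.6, 2939.3 and 1911.3 in activin and 1329.5, 1415.0 and 1980.0 in vehicle. It was higher in activin at 1 h and 2 h and not at 6 h, with an averaged log2 ratio of 0.49 and a limma adjusted p of 0.508. Polg2, the accessory subunit of the mitochondrial DNA polymerase, averaged 0.48 (adjusted p = 0.354) and Pprc1, another coactivator of that family, -0.27. Ppargc1a was under the filter.

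The remaining lists had averaged medians between -0.017 and 0.025. For the citric acid cycle with pyruvate dehydrogenase the averaged median was 0.007 over 17 genes, for glycolysis 0.010 over 16, and for carriers and other electron donors 0.025 over 22. In the last list Gpd2, which passes electrons from glycerol-3-phosphate to ubiquinone, had 3400.8, 4083.3 and 4741.9 in activin and 2967.2, 2966.4 and 2917.0 in vehicle. The groups did not overlap, with log2 ratios of 0.20, 0.46 and 0.70 and a limma adjusted p of 0.416. Etfdh, which brings electrons from fatty acid oxidation to ubiquinone, had 2737.0, 3266.9 and 3506.7 in activin and 2362.0, 2566.4 and 2347.9 in vehicle, again without overlap (averaged log2 ratio 0.38, limma adjusted p = 0.416). Eno2, a neuronal enolase of glycolysis, averaged -0.39 and Idh2, an isocitrate dehydrogenase, -0.24. The 76 mitochondrial ribosomal proteins had an averaged median of -0.017, with Mrpl50 highest at 0.30 and Mrps16 lowest at -0.16.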

How the data were processed

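Total RNA of Lbeta T2 cells was hybridised to 6 mouse arrays, with 1 array for every pairing of treatment (activin A or vehicle) and time (1, 2 or 6 h). The authors deposited intensity values, 1 linear signal per probe set, made with GCOS 1.4 per the submitters' processing notes. Its settings were not given in the sources used here. The values show that every array was scaled to 1 trimmed mean, with the lowest and highest 2% set aside. The authors' deposited fold-change lists were not used.

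Of 45101 probe sets, 64 controls were set aside. The platform annotation gave 1 gene for 34945, several for 932 and none for 9160, and names were used only for those with 1 gene. For 34741 of these, Entrez identifiers gave the current symbol in RefSeq GRCm38.p6, and 204 kept the listed symbol. Signals were taken to log2 with a pseudocount of 0. Probe sets above the median mean log2 (7.28, a signal of 155.2) were kept (22518), and the brightest stood for each of 11408 genes. Activin and time were tested over all genes with limma 3.58.1 (R 4.3.3) in an additive model of time and treatment, by two-sided tests with Benjamini-Hochberg adjustment at 0.05 (2 residual degrees of freedom, 3.06 from the prior). The code was tested on simulated data. The SE given after ± is limma's, so it rests on the variance shared over all genes as well as on a gene's own pairs. Single times were described by ratios and by counts past 1.2- and 1.5-fold.

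Named members were those with extreme ratios at a time (4 each way) or in their complex (3 each way), the lowest p values, tissue forms, catalytic subunits, members under the filter and those whose probe sets disagreed; related lists gave at most 2 genes each way. Members, lists and motifs were chosen with earlier results of these data known. The NRF1 motif was shortened to its 8-letter core after the longer form had been searched. The alternatives tried were quantile normalization and median centring of the arrays, dropping the filter or setting it at the 70th percentile, adding 48 before log2, taking the median over probe sets, a trended robust prior, no block, leaving out each time, the mean vehicle array as the comparison, and thresholds of 1.1 and 1.5; probe sets that share sequence with other transcripts were left out in an alternative chosen after seeing the data.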

Additional observations from a re-analysis of the deposited data

How the results depend on the processing

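The count of members past limma's adjusted threshold was 0 under each of the 11 refits. At an unadjusted p under 0.05 the count was 0 as reported, 1 with the filter at the 70th percentile, 2 with arrays centred on their median and 5 with a trended robust prior; over all genes the adjusted calls were 3 with the 70th percentile filter, 9 with the robust prior and otherwise 0. No member was past 1.2-fold in 1 direction at every time with signals as deposited, under either filter alternative, either scaling, the pseudocount of 48 or the median over probe sets. With signals as deposited the count at 1.1-fold was also 0; that threshold was not run under the other settings. Scaling moved the members' median log2 ratio. Quantile normalization turned it to -0.019 at 1 h, -0.001 at 2 h and -0.005 for the average over times, and median centring raised it to 0.111, 0.129 and 0.078 at 1, 2 and 6 h and to 0.105 for the average; the cause was not tested. The members' median less that of all genes was 0.083 as deposited and after centring, and 0.026 after quantile normalization. Leaving out the 1, 2 or 6 h arrays gave averaged medians of 0.050, 0.026 and 0.062, so the 2 h pair moved it most, by more than 1.5 times. In all, 63 values were rated as unchanged, those with 1 time left out among them. They were medians that kept their direction and moved by less than the spread of the 3 times' medians, 0.035, or counts that stayed at 0. Of single members, 49 had averaged ratios of both signs over the settings, while Cox7a1 stayed between 0.13 and 0.36 and Uqcrh between -0.21 and -0.07. The reported fit pairs the arrays of a time, and the fit without that block also called 0 members. The number of arrays limits the precision.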

Other observations

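Probe sets of 1 member often differed in sign. Of 46 members with at least 2 probe sets past the filter, 7 had the same sign on all of them at all 3 times. In Ndufb7, Ndufc1 and Uqcrb a further probe set had the opposite sign to the brightest at all 3 times. For Ndufb7, an accessory subunit of complex I, the brightest gave log2 ratios of 0.170, 0.091 and 0.009 at 1, 2 and 6 h, and the other gave -0.122, -0.068 and -0.005. For Uqcrb, a subunit of complex III, the brightest gave 0.059, 0.149 and -0.005, and the other -0.051, -0.153 and 0.251. For Ndufc1, the brightest gave -0.075, -0.013 and -0.001, and the other 0.030, 0.100 and 0.122, so its place among members lower at all 3 times holds for 1 probe set.

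The 10 probe sets set aside because the annotation gives several genes each name an oxidative phosphorylation gene with a copy or neighbour. Of the genes so named, Ndufa11 and Ndufs6 are not among the members, which needed a single symbol. The brighter probe set for Ndufb4 with Ndufb4b and Ndufb4c had signals of 7066.0, 7620.2 and 7745.3 in activin and 7131.2, 7294.7 and 7167.5 in vehicle, while the probe set used for Ndufb4 alone read 270.7 to 325.3. The probe set shared by Ndufab1 and its pseudogene had 5783.5, 5161.5 and 5326.6 in activin and 4718.5, 4569.2 and 4588.9 in vehicle. All its activin values stood above all vehicle values, with log2 ratios of 0.29, 0.18 and 0.21. The probe set shared by Ndufs6 and Ndufs6b had log2 ratios of -0.28, -0.08 and 0.15. Of the 89 members, 15 are represented by a probe set whose name marks sequence shared with other transcripts, Atp5pb among them.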
